A study of Mus musculus with 12 samples.

Results

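Nuclear genes for the protein quality control of mitochondria, 10 in number, were followed through 4 lines of mouse embryonic fibroblasts (MEFs). They encode the proteases and protease subunits LONP1, CLPP, CLPX, YME1L1, AFG3L2, SPG7 and HTRA2, the chaperonin HSPD1 with its co-chaperonin HSPE1, and the chaperone TRAP1. The 10 genes were taken by name from a table of 24453 genes, and all 10 passed the filter on low counts that left 14026 genes for testing. RNA was sequenced from 3 biological replicates of each line, 12 libraries in all. All lines have a C57BL6/J background and derive from MEFs labelled Pnpt1 neo-flox/neo-flox, in which loxP sites flank exon 2 of *Pnpt1*, the gene for the RNA-processing enzyme PNPase. TM6 is the untreated parent line, with the floxed gene in place. The rho0 line was grown from a single cell of TM6 after 3 weeks in 750 ng/mL ditercalinium, a drug that depletes mtDNA. PKO-1 and PKO-6 were each grown from a single TM6 cell after infection with an adenovirus that carries Cre recombinase, which deletes the floxed exon, and PKO stands for PNPase knockout. TM6 and rho0, which were not given Cre, thus keep the floxed gene. The PKO clones have lost exon 2, as checked in the study by PCR. The study also reported no mtDNA signal by quantitative PCR in the PKO clones, as in rho0. Uridine at 50 µg/mL was in the medium of every line. Each derived line is therefore 1 clone, and the spread between its 3 libraries is that of cultures of a clone.

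Mitochondria import most of their proteins unfolded, and those made from mtDNA are inserted into the inner membrane, so both sets need folding and removal of misfolded copies. LONP1 and the pair CLPX and CLPP degrade proteins in the matrix, AFG3L2 and SPG7 form a protease of the inner membrane that faces the matrix, and YME1L1 and HTRA2 act in the intermembrane space. HSPD1 and HSPE1 form the folding chamber of the matrix, and TRAP1 is the mitochondrial relative of HSP90. Cells can raise the transcription of such genes when mitochondrial proteins misfold, a program known as the mitochondrial unfolded protein response.

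The deposited estimated counts summed to 47164860 to 67991378 per library, of which *Rn45s*, the ribosomal RNA precursor, held 12.2% to 19.6%. *Pnpt1*, the targeted gene, stood at 2832, 3242 and 3319 normalized counts in the TM6 libraries, 5051, 5251 and 5510 in rho0, 1254, 1191 and 1276 in PKO-1, and 1897, 1720 and 2214 in PKO-6. Every PKO library was below every TM6 library, although the counts cover the whole gene and not only the deleted exon. Of 10 fibroblast markers, 9 reached 100 normalized counts in TM6 libraries, PKO-1 and PKO-6 and 8 in rho0, while *Thy1* had at most 2.81 on average in any line. Summed over the 10 markers, the levels were 562817 to 612188 in TM6, 458751 to 512983 in rho0, 620175 to 670489.9 in PKO-1 and 360032 to 402388 in PKO-6. These sums hide opposite moves, since the mean of *Fn1* was 113269.8 in TM6, 237872 in rho0, 259106 in PKO-1 and, for PKO-6, 208419, whereas 9 of the 10 markers had a mean below TM6 in rho0, 6 in PKO-1 and 8 in PKO-6. *Col1a1* had a mean of 182206 in TM6, 61619 in rho0, 98095 in PKO-1 and, for PKO-6, 38369. The means of *Col3a1* were 4765, 476, 7011 and 329 and those of *Sparc* 25574, 7399, 11996 and 5094 in the same order. The 10 markers of epithelial, endothelial and blood cells summed to 122 to 183 in TM6, rho0 and PKO-1 and to 469 to 508 in PKO-6, and their part in the results was not tested. In bulk RNA, fewer expressing cells and less RNA per cell cannot be told apart.

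In the derived lines the set did not move together. *Lonp1* and *Trap1* were higher than in TM6 in rho0, PKO-1 and PKO-6, *Afg3l2* was higher in rho0, and the other 7 genes were not called in any line. A gene was called where the quasi-likelihood test of edgeR gave an adjusted p below 0.01 and the log2 fold change exceeded 0.5 in either direction, which are the thresholds of the study. Against TM6, 3 of 10 genes were called in rho0 and 2 of 10 in either PKO clone, all of them higher. Of all tested genes, 42.1% were called in rho0, 34.3% in PKO-1 and 41.3% in PKO-6, and 20.7%, 16.4% and 21.9% were called higher and 21.4%, 17.9% and 19.4% lower. The share of the 10 genes called was thus below that of all genes in each line, and the share called higher was near it. Their median log2 fold change was 0.16 in rho0, 0.28 in PKO-1 and -0.03 in PKO-6, against 0.02, 0.00 and 0.01 for all tested genes. The libraries of the 2 lines did not overlap for 7 of the 10 genes in rho0, 10 in PKO-1 and 6 in PKO-6, where this held for 72.8%, 71.8% and 71.9% of all tested genes. By an adjusted p below 0.05 alone, 7, 8 and 5 of the 10 genes differed from TM6, against 71.9%, 64.4% and 70.1% of all tested genes.

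**Figure D1:**
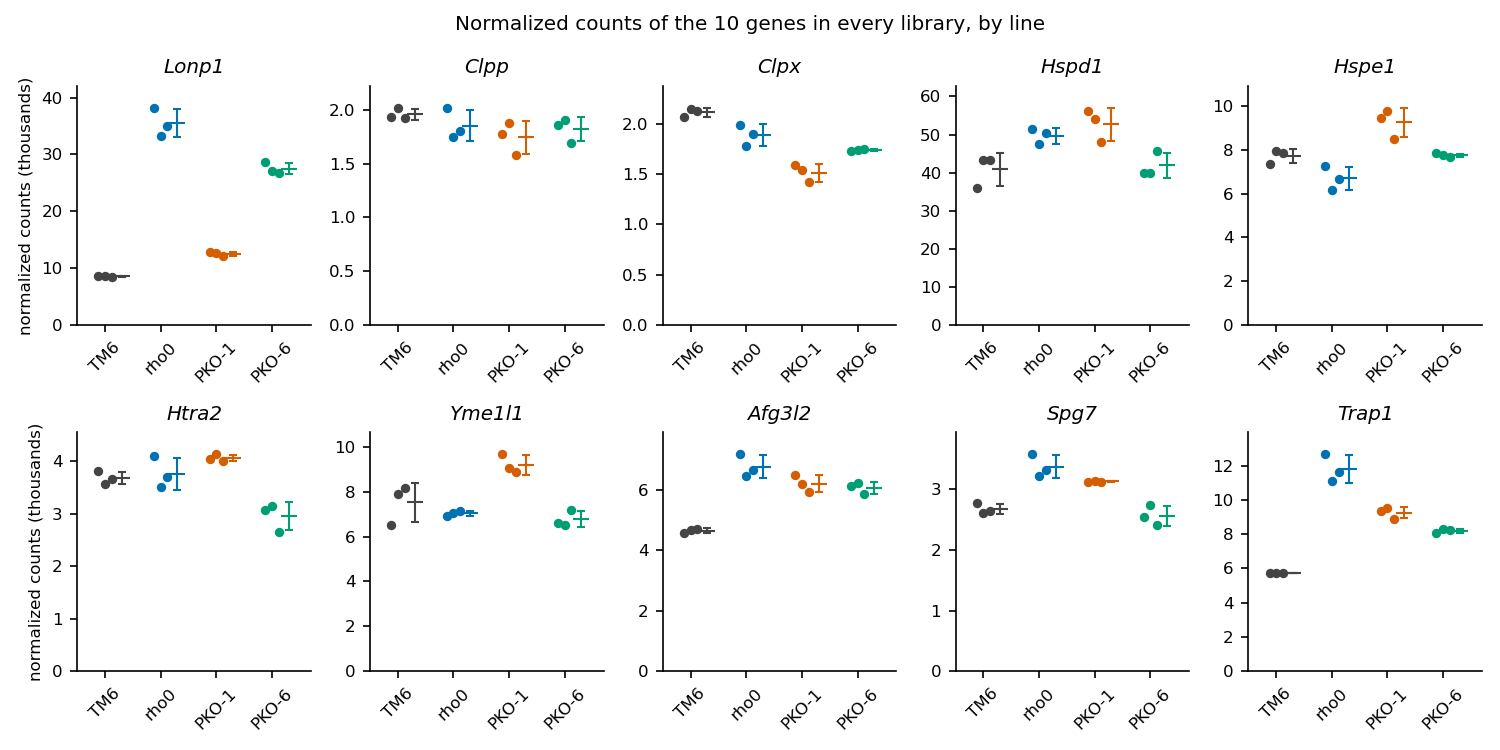
Normalized counts, on axes that start at 0, of the 10 genes in every library (points, 3 per line), with the mean and SD of each line beside them. *Lonp1* and *Trap1* lie lowest in TM6 and highest in rho0, whereas most other genes differ by less than 1.5-fold between lines.

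*Lonp1* had the largest log2 fold change of the 10 genes in rho0 and PKO-6, and *Trap1* in PKO-1. *Lonp1* encodes the matrix protease that removes oxidized and misfolded proteins and also binds mtDNA, and it lies at chr17:56614297-56626903 of GRCm38 on the minus strand with 18 exons. Its normalized counts were 8625, 8609 and 8464 in TM6 and 38218, 33309 and 34979 in rho0. PKO-1 had 12860, 12561 and 12049, and PKO-6 had 28686, 27078 and 26755. No 2 lines overlapped, and the order TM6, PKO-1, PKO-6, rho0 held in every library. The log2 fold change against TM6 was 2.05 ± 0.06 in rho0 (SE, 4.14-fold, edgeR adjusted p = 4.56e-12). It was 1.68 ± 0.06 in PKO-6 (3.21-fold, edgeR adjusted p = 1.85e-11) and 0.54 ± 0.06 in PKO-1 (1.46-fold, edgeR adjusted p = 2.31e-06). The 2 PKO clones differed from each other by more than PKO-6 differed from rho0. PKO-1 was 1.14 ± 0.06 lower than PKO-6 on the log2 scale (edgeR adjusted p = 1.70e-09) and 1.51 ± 0.06 lower than rho0 (edgeR adjusted p = 1.46e-10). PKO-6 stood 0.37 ± 0.06 below rho0, which is within the limit of 0.5 (edgeR adjusted p = 1.42e-04). The tested genes of chromosome 17 as a whole had median log2 fold changes of 0.25 in rho0, 0.20 in PKO-1 and 0.19 in PKO-6. With chromosome medians removed, *Lonp1* stood at 1.80 in rho0, 1.49 in PKO-6 and 0.34 in PKO-1, where it was no longer called.

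The genes whose 3 log2 fold changes against TM6 lay nearest to those of *Lonp1* were *Gtpbp2*, *Lars* and *Ttn*, among the 11205 tested genes whose mean normalized count reached 100. The root mean square difference over the 3 derived lines was 0.10 for *Gtpbp2* (2.23 in rho0, 0.57 in PKO-1 and 1.69 in PKO-6), 0.11 for *Lars* (2.10, 0.69 and 1.57) and 0.12 for *Ttn* (2.00, 0.51 and 1.49). *Lars* encodes the cytosolic leucyl-tRNA synthetase. This likeness rests on 3 values per gene that share the TM6 libraries. The root mean square log2 fold change of *Lonp1* itself was 1.56, ahead of *Trap1* at 0.78, *Afg3l2* at 0.45 and *Clpx* at 0.34, and *Clpp* was lowest of the 10 at 0.12.

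*Trap1* was the other gene called in all 3 derived lines. It encodes a mitochondrial HSP90 family chaperone, lies at chr16:4039971-4077840 on the minus strand with 18 exons, and overlaps *Dnase1*. TM6 libraries had 5727, 5712 and 5716 normalized counts and rho0 libraries 12669, 11091 and 11626. In PKO-1 they were 9355, 9529 and 8879, and in PKO-6 they were 8070, 8311 and 8241. The 4 lines did not overlap. PKO-1 stood above PKO-6 in every library, the reverse of their order for *Lonp1*. This difference between the clones was 0.17 ± 0.05 and was not called (edgeR adjusted p = 0.0124). Chromosome 16 had medians of 0.16 in PKO-1 and -0.01 in PKO-6. With chromosome medians removed, the difference between the clones was -0.00074. *Trap1* was higher than in TM6 by a log2 fold change of 1.04 ± 0.05 in rho0 (2.06-fold, edgeR adjusted p = 9.79e-10) and 0.69 ± 0.05 in PKO-1 (1.62-fold, edgeR adjusted p = 8.13e-08). In PKO-6 it was 0.52 ± 0.05 (1.44-fold, edgeR adjusted p = 1.02e-06). A block on replicate number over all 4 lines kept this call. With TM6 and PKO-6 fitted alone, with or without that block, the call was lost. *Lonp1* was then the 1 gene of 10 still called. With the block, the value of *Trap1* was 0.49, under the limit. Leaving out TM6 replicate 1, any 1 rho0 replicate or PKO-6 replicate 2 gave 0.48 or 0.49 and likewise ended the call. Against rho0, *Trap1* was 0.52 ± 0.05 lower in PKO-6 (edgeR adjusted p = 2.59e-06), a call that was lost without rho0 replicate 1 at -0.49.

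**Figure D2:**
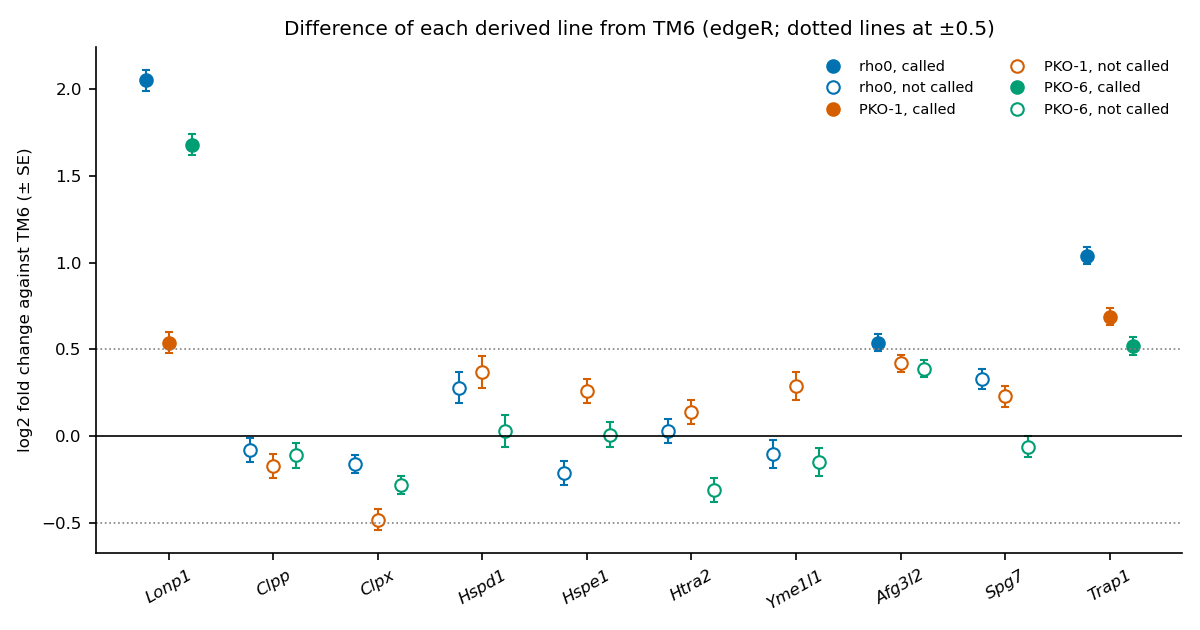
Log2 fold change of each gene against TM6 with its SE, for rho0, PKO-1 and PKO-6, with filled points for called genes and dotted lines at the limit of 0.5. *Lonp1* spans 0.54 to 2.05 and *Trap1* 0.52 to 1.04, while *Clpp* stays between -0.17 and -0.08.

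The stretches upstream of the called pair are shown because these genes are the ones that rose in all 3 derived lines. They are the 250 bases before a RefSeq start, 5′ to 3′ on the minus strand of GRCm38.p6. The coordinates are chr17:56626904-56627153 for *Lonp1* and chr16:4077811-4078060 for *Trap1*. The RefSeq start used for *Trap1* lies within the extent of the gene given above, so the last bases of its stretch lie in that extent. Neither holds a match to the motifs searched, so no base is in capitals.
Lonp1: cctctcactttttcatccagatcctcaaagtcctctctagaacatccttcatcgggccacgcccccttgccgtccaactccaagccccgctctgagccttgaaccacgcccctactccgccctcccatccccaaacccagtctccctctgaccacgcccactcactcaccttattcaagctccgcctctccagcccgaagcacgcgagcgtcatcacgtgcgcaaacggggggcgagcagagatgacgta
Trap1: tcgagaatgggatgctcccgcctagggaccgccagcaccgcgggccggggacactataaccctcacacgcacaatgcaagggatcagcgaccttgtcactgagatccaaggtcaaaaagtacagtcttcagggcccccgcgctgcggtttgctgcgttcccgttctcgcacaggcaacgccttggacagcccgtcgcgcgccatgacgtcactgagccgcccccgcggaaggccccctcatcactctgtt
The motifs were the heat shock element, searched as GAANNTTC or TTCNNGAA, and the composite element of ATF4 and CHOP, searched as TGATGCAA or TTGCATCA, each on both strands over 250 bases before and 50 after a start. Of 32851 promoters of that length, 15.1% held the first and 0.895% the second. Windows of 8 of the 10 genes were searched (*Htra2* and *Afg3l2* were not), and none held the composite element by these letters. The heat shock element was found in *Clpp*, once, in the window of *Hspe1* and in a window of *Hspd1*. The window of the other *Hspd1* start held 0 matches.

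*Hspd1* and *Hspe1*, the chaperonin genes, are neighbours on chromosome 1 that are transcribed away from each other. *Hspd1* lies at chr1:55077833-55088243 on the minus strand with 12 exons, *Hspe1* at chr1:55088148-55091317 on the plus strand with 4 exons, and their ends overlap. A stretch at chr1:55088053-55088082 held 3 overlapping matches to the heat shock element, in capitals, and is shown because both genes have it in a promoter window. It lies upstream of the *Hspe1* start and of the nearer of 2 RefSeq starts of *Hspd1*, within the extent of *Hspd1* given above, and reads as follows on the strand of each gene.
Hspe1: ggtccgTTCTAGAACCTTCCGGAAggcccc
Hspd1: ggggccTTCCGGAAGGTTCTAGAAcggacc
*Hspd1* has 23 pseudogenes in the annotation and *Hspe1* 7, with 0 of them in the count table, so reads from such copies could be counted with the parent gene.

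Neither chaperonin gene was called in any line, and their values lay on opposite sides of TM6 in rho0 and on the same side in PKO-1. *Hspd1* had 35919, 43279 and 43387 normalized counts in TM6 libraries, 51325, 47375 and 50292 in rho0, 56236, 54040 and 47915 in PKO-1, and 39992, 39987 and 45606 in PKO-6. It was above TM6 in every rho0 and PKO-1 library and overlapped TM6 in PKO-6. The log2 fold changes were 0.28 ± 0.09, 0.37 ± 0.09 and 0.03 ± 0.09, none of them past the limit (edgeR adjusted p = 0.0106, 0.00217 and 0.738). *Hspe1* had 7351, 7950 and 7882 in TM6, 7256, 6182 and 6651 in rho0, 9479, 9803 and 8521 in PKO-1, and 7840, 7751 and 7690 in PKO-6. Here the rho0 libraries lay below every TM6 library and the PKO-1 libraries above. Its values were -0.21 ± 0.07, 0.26 ± 0.07 and 0.01 ± 0.07, again within the limit (edgeR adjusted p = 0.0129, 0.00334 and 0.941). PKO-1 and rho0 differed in *Hspe1* by 0.47 ± 0.07 (edgeR adjusted p = 3.51e-05), which passed the limit of 0.5 when rho0 replicate 1 (0.51) or PKO-1 replicate 3 (0.53) was left out.

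*Clpx* and *Clpp* encode the unfoldase and the peptidase of the ClpXP protease. *Clpx* lies at chr9:65294251-65330658 on the plus strand and overlaps the non-coding gene *Gm16218*, and *Clpp* lies at chr17:56990264-56996371 on the plus strand with 6 exons. *Clpx* had 2066, 2150 and 2132 normalized counts in TM6 libraries, 1991, 1780 and 1895 in rho0, 1588, 1536 and 1416 in PKO-1, and 1728, 1738 and 1753 in PKO-6. Every library of a derived line was below every TM6 library. The log2 fold change was -0.48 ± 0.06 in PKO-1 (edgeR adjusted p = 3.88e-06), just inside the limit, and it passed the limit under 12 of 20 alternatives, among them DESeq2's Wald test at -0.50. In PKO-6 it was -0.28 ± 0.05 (edgeR adjusted p = 3.90e-04) and in rho0 -0.16 ± 0.05 (edgeR adjusted p = 0.0163). Chromosome 9 had a median of -0.39 in PKO-1, 0.01 in PKO-6 and 0.04 in rho0, and with these medians removed *Clpx* stood at -0.09 in PKO-1. Without such a correction, *Clpp* had the lowest root mean square log2 fold change of all the genes followed, 0.12 over the 3 derived lines. Its log2 fold changes were -0.08 in rho0, -0.17 in PKO-1 and -0.11 in PKO-6. Within each line another gene lay nearer to TM6. *Htra2* stood at 0.03 in rho0 and 0.14 in PKO-1, and *Hspe1* at 0.01 in PKO-6. The mean of *Clpp* was 1959 ± 51.8 normalized counts in TM6 (SD of 3 libraries, as for the other lines). The means were 1853 ± 140.4 in rho0, 1743 ± 151 in PKO-1 and 1819.7 ± 115 in PKO-6. With chromosome medians removed, *Clpp* stood at -0.33 in rho0, -0.37 in PKO-1 and -0.30 in PKO-6. These values were within the limit (edgeR adjusted p = 0.00113, 6.44e-04 and 0.00232).

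Of the 10 genes, *Clpx* alone has 2 listed transcripts. The shorter, with 13 exons against 14, took 23.7%, 27.4% and 27.3% of the estimated counts of *Clpx* in TM6 and 18.9%, 18.3% and 11.5% in rho0. The mean share was 14.4% ± 2.59 in PKO-1 (SD, n = 3), and the PKO-6 libraries gave 20.5%, 29.1% and 13.6%. The rho0 and PKO-1 libraries lay below TM6 and the PKO-6 libraries on both sides of it. These shares are estimates from reads common to both transcripts and were not tested.

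*Afg3l2* and *Spg7* encode the subunits of the m-AAA protease of the inner membrane. *Afg3l2* lies at chr18:67404764-67449192 on the minus strand with 17 exons. It had 4562, 4680 and 4702 normalized counts in TM6 libraries, 7179, 6458 and 6661 in rho0, 6484, 6190 and 5930 in PKO-1, and 6138, 6227 and 5847 in PKO-6. All 9 libraries of the derived lines were above all TM6 libraries. The log2 fold change was 0.54 ± 0.05 in rho0 (1.46-fold, edgeR adjusted p = 6.65e-07), where the gene was called, and 0.42 ± 0.05 in PKO-1 and 0.39 ± 0.05 in PKO-6, where it was not (edgeR adjusted p = 1.14e-05 and 1.81e-05). Between rho0 and the clones the differences were -0.13 and -0.16, under the limit. The median of all tested genes of chromosome 18 moved by nearly as much, 0.42 in rho0, 0.42 in PKO-1 and 0.34 in PKO-6. With chromosome medians removed, *Afg3l2* stood at 0.12 in rho0 (edgeR adjusted p = 0.0627), -0.0014 in PKO-1 and 0.04 in PKO-6, and without rho0 replicate 1 the value was 0.48.

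*Spg7*, at chr8:123065508-123097760 on the plus strand with 17 exons, had 2776, 2612 and 2635 normalized counts in TM6 libraries, 3578, 3218 and 3320 in rho0, 3127, 3144 and 3123 in PKO-1, and 2548, 2740 and 2410 in PKO-6. The gene was above TM6 in all rho0 and PKO-1 libraries and overlapped it in PKO-6. Its log2 fold changes of 0.33 ± 0.06, 0.23 ± 0.06 and -0.06 ± 0.06 were within the limit (edgeR adjusted p = 1.16e-04, 0.00289 and 0.36). Chromosome 8 had medians of -0.18, -0.11 and -0.43 in the 3 lines. With chromosome medians removed, *Spg7* stood at 0.51 in rho0, past the limit, 0.34 in PKO-1 and 0.37 in PKO-6.

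*Yme1l1* and *Htra2* encode proteases that face the intermembrane space, and neither was called in any comparison. *Yme1l1*, at chr2:23155442-23199260 on the plus strand with 19 exons and overlapping *Mastl*, had a mean of 7519 ± 883 normalized counts in TM6 (SD of 3 libraries, as for the other lines), 7032 ± 107 in rho0, 9186 ± 425 in PKO-1 and 6764 ± 359 in PKO-6. PKO-1 libraries, at 8855 to 9666, were above all others, with a log2 fold change of 0.29 ± 0.08 against TM6 (edgeR adjusted p = 0.00399) and 0.44 ± 0.08 against PKO-6 (edgeR adjusted p = 1.77e-04). *Htra2*, at chr6:83051266-83054571 on the minus strand with 8 exons, overlaps *Loxl3* and *Aup1*. It had 3679 ± 117 in TM6 (SD of 3 libraries), 3763 ± 302 in rho0, 4062 ± 64.9 in PKO-1 and 2959.8 ± 264 in PKO-6. PKO-6 libraries, at 2660 to 3156, were below all others, with a log2 fold change of -0.31 ± 0.07 against TM6 (edgeR adjusted p = 0.00105). PKO-1 stood 0.46 ± 0.07 above PKO-6 in *Htra2* (edgeR adjusted p = 6.21e-05), which passed the limit at 0.51 when PKO-6 replicate 2 was left out.

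Levels can be set against each other per length of transcript, in TPM, each gene's share of the transcripts of a library after correction for length. In TM6 the chaperonin genes led, *Hspd1* with a mean of 576 ± 58.6 TPM and *Hspe1* with 401 ± 18.3 (SD, n = 3 each), which placed them at ranks 221 and 309 of all genes. *Lonp1* followed with 93.2 ± 0.974 TPM and *Trap1* with 81.9 ± 0.766, then *Htra2* with 72.4, *Clpp* with 58.0, *Yme1l1* with 51.9, *Afg3l2* with 49.0, *Spg7* with 34.1 and *Clpx* with 23.8. Of the neighbours in this order, only *Yme1l1* and *Afg3l2* overlapped between libraries. In rho0 *Lonp1* had 380.0 ± 6.18 TPM and stood above *Hspe1*, at 341 ± 10.0, in every library, and its rank among all genes was 277, against 1365 in TM6. It ranked 357 in PKO-6 with 288 ± 16.7 TPM and 923 in PKO-1 with 129.8 ± 3.45, where its libraries overlapped those of *Trap1*. *Clpx* was the lowest of the 10 genes in all 4 lines.

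Summed over the 7 protease genes, the level was 382 ± 3.87 TPM in TM6 (SD of 3 libraries), 688 ± 12.7 in rho0, 433 ± 9.81 in PKO-1 and 553 ± 23.5 in PKO-6. *Lonp1* made up 23.9% to 24.9% of this sum in TM6, 54.8% to 55.7% in rho0, 29.8% to 30.1% in PKO-1 and 51.0% to 53.0% in PKO-6. Without it, the other 6 genes summed to 285 to 294 TPM in TM6, 299.6 to 314 in rho0, 296 to 309 in PKO-1 and 259 to 274 in PKO-6. The differences between lines in the sum thus lay mostly in *Lonp1*. *Hspd1* and *Hspe1* summed to 889 to 1029 TPM in TM6, 990.5 to 1074 in rho0, 1112 to 1229 in PKO-1 and 877 to 1085 in PKO-6, so that PKO-1 lay above every other library.

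**Figure D3:**
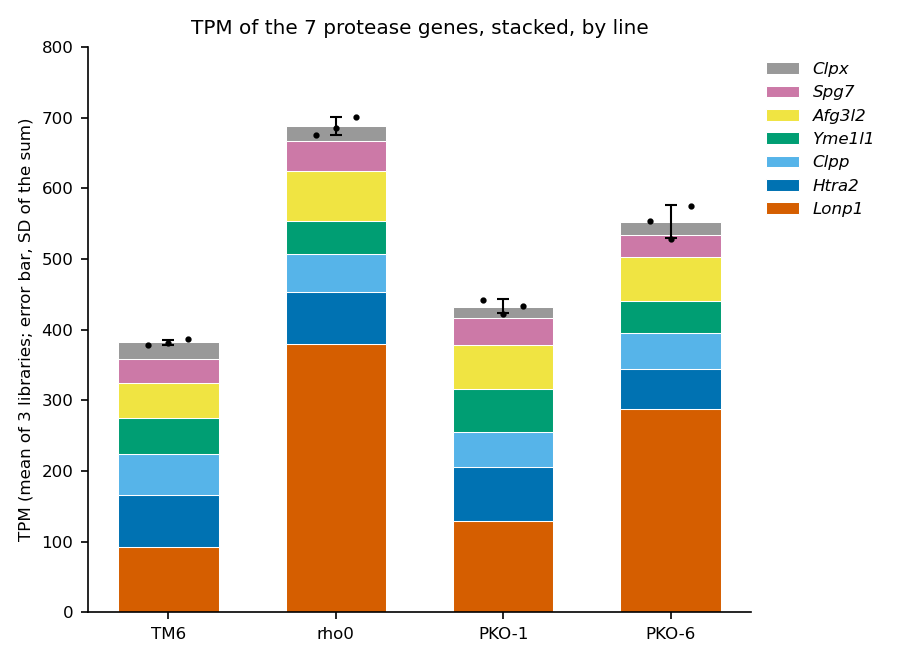
Mean TPM of the 7 protease genes, stacked from 0 for each line, with the sum of each library as a point and the SD of the sum as a bar. The *Lonp1* segment makes up 24.4% of the bar in TM6 and 55.2% in rho0, and the other segments together stay between 264 and 308 TPM.

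Partners of a machine were compared by the log2 ratio of their counts within a library, which does not depend on how libraries are scaled. *Hspe1* to *Hspd1* was -2.29, -2.44 and -2.46 in TM6 and -2.82, -2.94 and -2.92 in rho0, so every rho0 library had less co-chaperonin RNA per chaperonin RNA. The difference of -0.50 reached the smallest p that 3 against 3 libraries allow (exact permutation test, two-sided, p = 0.1). In PKO-1 the difference was -0.11 (exact p = 0.1) and in PKO-6 -0.03 (exact p = 0.8), where the libraries overlapped. *Spg7* to *Afg3l2* was -0.72, -0.84 and -0.84 in TM6, -1.05, -0.98 and -0.92 in PKO-1, and -1.27, -1.18 and -1.28 in PKO-6. Against TM6 it differed by -0.21 in rho0, -0.19 in PKO-1 and -0.45 in PKO-6 with no overlap (exact p = 0.1 for each). *Clpx* to *Clpp* differed from TM6 by -0.08 in rho0, -0.31 in PKO-1 and -0.17 in PKO-6, also with no overlap (exact p = 0.1 for each). Over these 9 exact permutation tests, the adjusted p was 0.113 for the 8 differences at the smallest p. A design of this size cannot reach 0.05. *Spg7* and *Afg3l2* lie on different chromosomes, as do *Clpx* and *Clpp*, and the ratios were not corrected for chromosome medians. With these medians removed, *Spg7* stood at 0.51, 0.34 and 0.37 against TM6 in rho0, PKO-1 and PKO-6. *Afg3l2* stood at 0.12, -0.0014 and 0.04, below *Spg7* in each line. *Clpx* stood at -0.20, -0.09 and -0.29 and *Clpp* at -0.33, -0.37 and -0.30. The ratios were not tested with these medians removed.

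**Figure D4:**
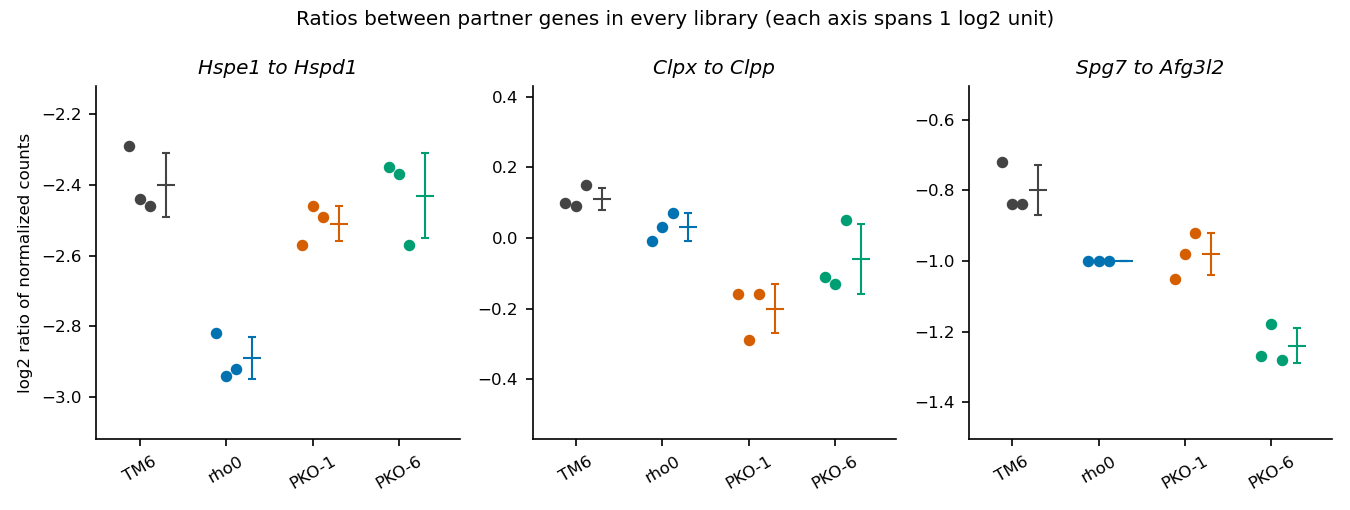
Log2 ratio of normalized counts between partner genes in every library (points), with the mean and SD of each line beside them, on axes that each span 1 log2 unit. The rho0 libraries lie lowest for *Hspe1* to *Hspd1*, PKO-1 for *Clpx* to *Clpp* and PKO-6 for *Spg7* to *Afg3l2*. The ratios are not corrected for chromosome medians.

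Compared directly, each pair of derived lines had 1 of the 10 genes past both thresholds. PKO-1 against rho0 called *Lonp1* alone, lower, where 32.7% of tested genes were called. PKO-6 against rho0 called *Trap1* alone, lower, where 21.5% were called, and PKO-1 against PKO-6 called *Lonp1* alone, lower, where 29.1% were called. With both clones pooled into 1 PKO group, 0 of the 10 genes were called between PKO and rho0 (edgeR), and *Lonp1* was at -0.83 (edgeR adjusted p = 0.0443). By an adjusted p below 0.05 alone, 5 of the 10 genes differed between PKO-1 and rho0, 7 between PKO-6 and rho0 and 8 between the clones, against 66.0%, 54.5% and 61.4% of all tested genes. The libraries did not overlap for 6, 8 and 8 of the 10 genes, against 69.5%, 56.7% and 66.5% of all tested genes. Most of these differences were thus smaller than the limit of 0.5.

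Around the 10 genes, other mitochondrial proteases moved in both directions. This list held *Oma1*, *Parl*, *Pmpca*, *Pmpcb*, *Mipep*, *Xpnpep3*, *Immp1l*, *Immp2l*, *Pitrm1*, *Nln*, *Xrcc6bp1* (the metalloprotease ATP23) and *Lactb*. Against TM6, 1 of 12 was called higher and 1 lower in rho0, and 2 higher and 3 lower in PKO-1. In PKO-6, 2 were called higher and 2 lower. The medians were -0.08, -0.04 and 0.07. Of all tested genes, 20.7%, 16.4% and 21.9% were called higher and 21.4%, 17.9% and 19.4% lower in these lines. The difference from these shares was not tested. *Immp2l*, a subunit of the inner membrane peptidase, rose in all 3 lines, from 45.8, 50.6 and 55.8 normalized counts in TM6 to 345, 268 and 293 in rho0, 131, 173 and 146 in PKO-1 and 226, 225 and 180 in PKO-6. *Lactb*, a filament-forming serine protease of the intermembrane space, fell in all 3, from 950, 936 and 1001 in TM6 to 229, 191 and 219 in rho0, 312, 253 and 274 in PKO-1 and 303, 313 and 303 in PKO-6. The log2 fold changes were 2.57 ± 0.16, 1.56 ± 0.16 and 2.05 ± 0.16 for *Immp2l* and -2.18 ± 0.10, -1.78 ± 0.09 and -1.65 ± 0.09 for *Lactb*. The other called genes, named after their values were seen, were *Mipep*, higher, and *Nln*, lower, in both PKO clones and *Xrcc6bp1*, lower, in PKO-1.

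Mitochondrial chaperones and protease scaffolds were called higher more often than lower in each line. Of *Hspa9*, *Grpel1*, *Grpel2*, *Dnaja3*, *Hscb*, *Clpb*, *Lace1*, *Bcs1l*, *Phb*, *Phb2*, *Stoml2* and *9430016H08Rik*, 6 of 12 were called higher in rho0, 5 in PKO-1 and 6 in PKO-6. One, *Phb* in rho0, was called lower, and the medians were 0.50, 0.33 and 0.43. The shares called higher among all tested genes were 20.7%, 16.4% and 21.9%, and the difference from these or from the 10 genes was not tested. *Hspa9*, the mitochondrial HSP70 that pulls proteins through the inner membrane, rose from 43027, 47470 and 47576 normalized counts in TM6 to 149016, 131912 and 138257 in rho0, 78638, 76266 and 69901 in PKO-1 and 111597, 113307 and 114989 in PKO-6. Its log2 fold changes of 1.60 ± 0.07, 0.70 ± 0.07 and 1.30 ± 0.07 gave the lines the order they had for *Lonp1*, with no overlap between any 2 lines (edgeR adjusted p = 2.32e-10, 1.03e-06 and 1.39e-09). With chromosome medians removed, *Hspa9* stood at 1.18 in rho0, 0.96 in PKO-6 and 0.29 in PKO-1, where the call was lost. *Hscb*, a co-chaperone for iron-sulfur clusters, rose by 1.16 ± 0.10, 0.66 ± 0.10 and 1.44 ± 0.10, and *Lace1*, also named AFG1L, by 0.73 ± 0.08, 0.68 ± 0.08 and 1.32 ± 0.08. *Dnaja3*, the partner of HSPA9, was also called higher in all 3 lines, and is named after its values were seen, as are *Bcs1l* in PKO-1 and *Phb*.

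Genes for protein folding in the cytosol formed the CCT and heat shock lists. Among 8 subunits of the cytosolic chaperonin CCT, 0 were called higher against TM6, 2 were called lower in rho0 (*Cct3* and *Cct6a*), 0 in PKO-1 and 1 in PKO-6 (*Cct3*), with medians of -0.09, -0.05 and -0.31. Among 10 cytosolic heat shock genes (*Hsp90aa1*, *Hsp90ab1*, *Hspa8*, *Hspa4*, *Hsph1*, *Dnaja1*, *Dnajb1*, *Hspb1*, *Hspa1a* and *Hspa1b*), 5 were called lower in rho0, 4 in PKO-1 and 4 in PKO-6, and 1, *Hsp90aa1* in PKO-1, was called higher. Of all tested genes, 20.7%, 16.4% and 21.9% were called higher and 21.4%, 17.9% and 19.4% lower in rho0, PKO-1 and PKO-6. The difference of either list from these shares was not tested. The medians of the heat shock list were -0.66, -0.27 and -0.31. *Hspa1b*, an inducible HSP70, had 4757, 4775 and 4319 normalized counts in TM6 libraries, 957, 721 and 807 in rho0, 2258, 2520 and 2367 in PKO-1, and 804, 1059 and 792 in PKO-6. Its log2 fold changes were -2.48 ± 0.12, -0.95 ± 0.11 and -2.39 ± 0.11, and those of its near-identical copy *Hspa1a* were -1.82 ± 0.10, -0.86 ± 0.10 and -2.29 ± 0.10, and the split of reads between these copies is uncertain. *Dnajb1*, an HSP40 of the cytosol, stood at -0.87 ± 0.08, -0.53 ± 0.08 and -0.92 ± 0.08, and with chromosome medians removed at -0.69, -0.41 and -0.50, so that the calls in PKO-1 and PKO-6 were lost. *Hspb1* and *Hsph1*, named after their values were seen, make up the rest of the genes called lower. *Hspd1* and *Hspe1* were not called in any line. Whether their heat shock element matches bear on their levels was not tested.

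**Figure D5:**
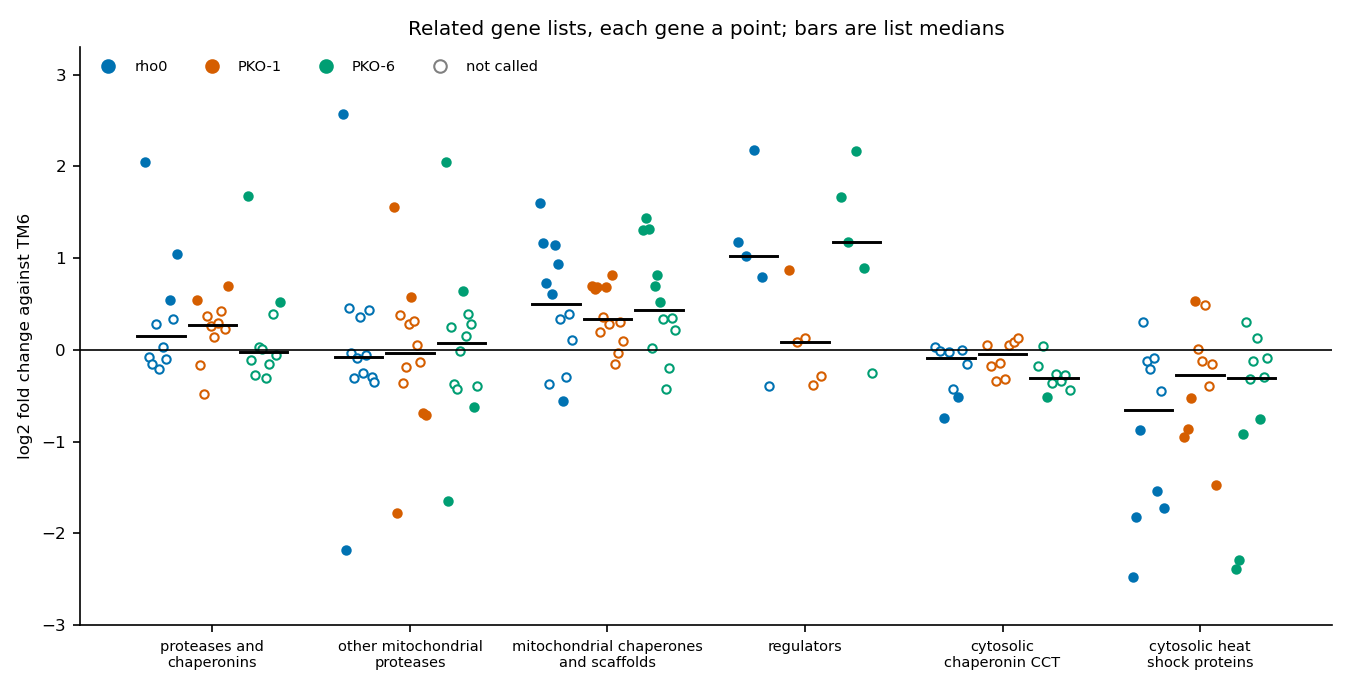
Log2 fold change against TM6 of every gene of the 10 and of the 5 lists of related genes, by derived line, with filled points for called genes and black bars for list medians. Medians of the mitochondrial chaperones lie at 0.50, 0.33 and 0.43 and those of the cytosolic heat shock proteins at -0.66, -0.27 and -0.31.

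Among regulators tied to the mitochondrial unfolded protein response, *Atf4*, *Ddit3* and *Cebpb* were called higher than in TM6 in rho0 and PKO-6 but not in PKO-1. *Atf5* was called higher in all 3 lines, and *Hsf1* was not called in any. Of these regulators, 4 of 5 were called higher in rho0 and PKO-6 and 1, *Atf5*, in PKO-1. As a background, 20.7% of all tested genes were called higher for rho0, 16.4% for PKO-1 and 21.9% for PKO-6. Whether the regulators differed from these shares was not tested. *Ddit3*, which encodes CHOP, had 1068, 963 and 1016 normalized counts in TM6 libraries, 5041, 4386 and 4375 in rho0, 1184, 1093 and 1062 in PKO-1, and 5093, 4284 and 4349 in PKO-6. PKO-1 overlapped TM6, and PKO-6 overlapped rho0. Its log2 fold changes were 2.18 ± 0.08 in rho0, 0.13 ± 0.08 in PKO-1 and 2.17 ± 0.08 in PKO-6 (edgeR adjusted p = 4.13e-11, 0.179 and 2.96e-11). *Atf4*, a transcription factor of the integrated stress response, stood at 1.02 ± 0.07, 0.08 ± 0.07 and 1.18 ± 0.07, and *Cebpb* at 0.79 ± 0.11, -0.38 ± 0.11 and 0.89 ± 0.11. *Atf5* was higher in all 3 lines, by 1.18 ± 0.09 in rho0, 0.87 ± 0.09 in PKO-1 and 1.67 ± 0.09 in PKO-6. Between the clones *Atf5* also differed, with PKO-1 against PKO-6 at -0.80 ± 0.09 (edgeR adjusted p = 3.25e-06). *Hsf1*, the heat shock transcription factor, stood at -0.40 ± 0.05, -0.29 ± 0.05 and -0.25 ± 0.05, within the limit. *Trap1* was called higher than in TM6 in rho0, PKO-1 and PKO-6, as were *Lonp1* and *Hspa9*. In the direct test of PKO-1 against PKO-6, *Trap1* stood at 0.17 and was not called. *Lonp1* (-1.14) and *Hspa9* (-0.60) were called lower in PKO-1. How these genes relate to the regulators was not tested. All comparisons against TM6 share the TM6 libraries.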

How the data were processed

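RNA-Seq data of 12 libraries (TM6, rho0, PKO-1 and PKO-6 MEFs, 3 biological replicates each) were re-analysed. Per the study's methods, ribosomal RNA was depleted, strand-specific libraries were sequenced with paired ends, and technical duplicates were merged. The authors estimated counts with RSEM 1.2.25 and bowtie2 against RefSeq transcripts of mm10 (GRCm38). Expected counts, not normalized, were deposited per gene, and expected counts and TPM per transcript and library, and TPM was here summed over transcripts for comparing levels between genes. Whether counting used strand is not given in the sources used here, so reads of overlapping genes may be shared. Of the counts, 12.5% had decimals, and all were rounded. The table held 0 genes of mtDNA, which was not analysed here.

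Tests used R 4.3.3 and edgeR 4.0.16. Genes were kept by filterByExpr (minimum count 10, 14026 genes) and library sizes were scaled by TMM. All 4 lines entered 1 quasi-likelihood fit, with Benjamini-Hochberg adjustment over all tested genes. The thresholds for a call are those in the report. The SE is the log2 fold change divided by the square root of F. Normalized counts are counts divided by the scaled library size relative to the mean library. Ratios of partner genes were compared by exact permutation tests with scipy 1.17.1. Same-line libraries differed beyond sampling noise, with a chi-square of 4.38 to 127 per degree of freedom. Deviations from the line means of same-numbered TM6 and PKO-6 libraries correlated at 0.25, 0.25 and 0.209. No other pair of lines exceeded 0.1 in all 3 pairs, so the replicate number was taken to pair these lines. That pairing comes from the data, not the labels. It is weak, since libraries with unlike numbers correlated at up to 0.49 (rho0 replicate 1 with PKO-6 replicate 2).

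The 10 genes, the lists and the rules were chosen with earlier results of these data known. Named were the 10 genes, up to 3 genes per list and direction called in all 3 derived lines with the largest mean change, all regulators, 3 genes nearest to the gene with the largest root mean square change, and *Pnpt1*. Alternatives were DESeq2 1.42.0 (Wald test and size factors), no filter, a replicate block, the 2 compared lines alone, *Rn45s* removed, chromosome medians removed, pooled clones, other thresholds and each library left out. The fit was tested on simulated data.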

Additional observations from a re-analysis of the deposited data

Results flagged for a closer look

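For the 10 genes and the list genes named by rule, results are given where a direct test between derived lines (edgeR's quasi-likelihood test) found that their differences from TM6 were unequal; each value is a log2 fold change, and its cause was not tested. Between PKO-1 and rho0, *Lonp1* differed by -1.51, *Immp2l* by -1.01, *Hspa9* by -0.90, *Atf4* by -0.93, *Ddit3* by -2.05 and *Cebpb* by -1.17, all lower in PKO-1, whereas *Hspa1b* (1.52) and *Hspa1a* (0.96) were higher there.

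Between the PKO clones, *Lonp1* differed by -1.14, *Hspa9* by -0.60, *Hscb* by -0.78, *Lace1* by -0.64, *Atf5* by -0.80, *Atf4* by -1.09, *Ddit3* by -2.04 and *Cebpb* by -1.27, all with the lower level in PKO-1. *Hspa1b* and *Hspa1a* were each 1.43 higher in PKO-1. Each derived line is 1 clone, so line and clone cannot be told apart.

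Between PKO-6 and rho0, *Trap1* (-0.52) and *Immp2l* (-0.52) were lower in PKO-6 and *Lactb* (0.52) and *Lace1* (0.58) higher. Each of these 4 lost its call under at least 1 alternative. Larger differences between these lines were found for *Hspb1* (1.62) and *Hsph1* (0.79), which are named after their values were seen and were higher in PKO-6.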

How the results depend on the processing

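Of 1200 log2 fold changes of the 10 genes under the alternatives, 1132 kept their direction and their side of the threshold, 16 gained a call, 15 lost one and 37 changed sign. The cause of these changes was not tested.

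For the number of the 10 genes called, an adjusted p of 0.05 alone gave 7 in rho0, 8 in PKO-1 and 5 in PKO-6 against TM6, 5 for PKO-1 and 7 for PKO-6 against rho0, and 8 between the clones. An absolute log2 fold change above 1 gave 0 in PKO-1 and 1 in PKO-6 against TM6 and 0 for PKO-6 against rho0. The share of all tested genes at that limit is not given here, so these counts have no background. Pooled clones gave 0 against rho0. Removing chromosome medians gave 1 in PKO-1 against TM6 and 0 for PKO-6 against rho0, where 4032 and 2728 of all tested genes were called. For PKO-6 against TM6, *Rn45s* removed, only these lines fitted, and the replicate block fitted to them each gave 1; that block was added after seeing the data, and the block over all 4 lines changed no call. Leaving out 1 library gave 2 to 3, 2 to 3 and 1 to 2 called against TM6, 1 to 2 for PKO-1 and 0 to 1 for PKO-6 against rho0, and 1 to 2 between the clones.

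Signs changed only for values that had not been called. With chromosome medians removed these were, against TM6, *Hspd1* (-0.18), *Hspe1* (-0.21) and *Spg7* (0.37) in PKO-6, *Htra2* in rho0 (-0.12) and PKO-1 (-0.07), and *Afg3l2* in PKO-1 (-0.0014). For PKO-1 against rho0 they were *Clpx* (0.11) and *Hsf1* (-0.03). For PKO-6 against rho0 they were *Clpp* (0.03), *Dnajb1* (0.19), *Atf4* (-0.13) and *Hsf1* (-0.13). Between the clones they were *Clpx* (0.20), *Afg3l2* (-0.05), *Spg7* (-0.03), *Trap1* (-0.00074), *Lactb* (0.27) and *Hsf1* (0.10). With pooled clones they were *Htra2* (-0.07), *Yme1l1* (0.09), *Spg7* (0.09) and *Cebpb* (0.39) against TM6, and *Hspd1* (-0.07), *Htra2* (-0.10), *Yme1l1* (0.18), *Hscb* (-0.05), *Lace1* (0.30), *Atf5* (0.14), *Hspa1a* (0.41), *Dnajb1* (0.16), *Atf4* (-0.29) and *Cebpb* (-0.40) against rho0. *Hspe1* in PKO-6 against TM6 was -0.01 with DESeq2's size factors and Wald test, -0.02 with these lines alone or with the replicate block, and -0.03 without *Rn45s*. *Ddit3* in PKO-6 against rho0 was 0.0015 with these lines alone.

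Leaving out 1 library gave, for PKO-6 against TM6, -0.08 to 0.08 for *Hspd1*, -0.06 to 0.02 for *Hspe1* and -0.07 to 0.04 for the ratio of *Hspe1* to *Hspd1*, and -0.05 to 0.06 for *Htra2* in rho0. For PKO-6 against rho0 it gave -0.08 to 0.03 for *Clpp*, -0.07 to 0.19 for *Hspa1b*, -0.14 to 0.02 for *Dnajb1*, -0.10 to 0.04 for *Ddit3* and -0.0016 to 0.23 for *Cebpb*. It gave -0.12 to 0.01 for *Lace1* in PKO-1 against rho0 and, between the clones, -0.12 to 0.01 for *Clpp* and -0.00011 to 0.06 for *Afg3l2*.

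Among the lists, pooled clones left 1 regulator called against TM6 in place of 4 in rho0 and PKO-6. CCT ranged from 1 to 3 in rho0 and 0 to 2 in PKO-6, and chromosome medians left 3 cytosolic heat shock genes in PKO-1 in place of 5. Over all genes, pooled clones called 1500 between PKO and rho0, against 4590 for PKO-1 and 3014 for PKO-6. With 1 clone per derived line, differences between lines include those between clones.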
